A study of Homo sapiens with 4 samples.

Results

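Mitochondrial ribosomal protein genes encode the protein subunits of the ribosome that works inside mitochondria. They were taken here as the genes whose platform symbol begins with MRPL or MRPS followed by a digit, without pseudogenes (MRPL42P5 and MRPS31P5) and without LOC entries. That rule, which uses names and no measured value, gave 77 genes of 18665 on the arrays, 49 with MRPL and 28 with MRPS symbols. Illumina bead arrays read the messenger RNA of 4 human colon adenocarcinoma cultures, 1 array each: LvM3b cells over-expressing miR-483 (its 5p arm, by the title of the series), LvM3b cells over-expressing miR-551a, LvM3b control cells, and Ls-Parental cells. All were grown in DMEM with 10% fetal bovine serum and taken at about 70% confluence. LvM3b is known from published work as a derivative of a colon cancer line selected for growth in the liver, and Ls-Parental is named for the line before selection. The title and source name of the last array say Ls-Parental, while its cell line entry reads LvM3b. The labels name neither the construct in the microRNA cultures nor what the control cells carried. No group had a replicate, so no difference below has an error or a test. Values of 2 cultures can differ through the culture, the RNA preparation or the array, and these cannot be told apart from the condition. The series set out to find genes lowered by the 2 microRNAs.

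Mitochondria carry their own small genome, which encodes ribosomal RNAs, transfer RNAs and a few core subunits of the respiratory chain. All proteins of the mitochondrial ribosome are instead encoded in the nucleus, made on cytosolic ribosomes and imported. The large subunit joins amino acids into the chain and feeds it to the inner membrane, and the small subunit reads the messenger RNA. Some of these proteins descend from bacterial ribosomal proteins, and others were added during the evolution of mitochondria. Colon tumours with low respiratory capacity and others that depend on respiration have both been described, and translation in mitochondria is needed for complexes of the respiratory chain.

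By structure, 51 of the 77 genes belong to the large subunit, among them MRPS30 and MRPS18A despite their symbols, and 26 to the small subunit. By origin, 47 encode relatives of bacterial proteins and 30 encode proteins specific to mitochondria. They lie on 21 chromosomes. MicroRNAs pair with messenger RNAs mainly through the seed, bases 2 to 8. The RefSeq table of GRCh38.p14 gives the mature form of miR-551a, shown with its seed in capitals because it is the sequence over-expressed in the second LvM3b culture:
hsa-miR-551a: gCGACCCAcucuugguuucca

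All 77 genes were detected on all 4 arrays at a detection p under 0.01, against 8889 of 18665 genes overall (47.6%). Of 110 probes for these genes, 102 were detected on all 4 arrays, 7 on none and 1, for MRPL10, on 1 array. Of 10 colon epithelium markers, which check the tissue label, 9 were detected on all 4 arrays, and KRT20 on 1, Ls-Parental. Markers of other cell types were mixed. Among hepatocyte markers SERPINA1 was detected on all 4 arrays, and ALB, APOA1, APOB, TTR and FGB on none. Among immune and endothelial markers CD68 was detected on all 4, CD14 and PECAM1 on 1 each, and PTPRC, CD3E, HLA-DRA and VWF on none. Of fibroblast markers LUM and COL3A1 were detected on 3 arrays, and COL1A1, COL1A2, DCN and PDGFRB on none. LUM had 8.44 in the LvM3b control and 6.04 in Ls-Parental. Normalized levels below are log2 intensities after background correction and quantile normalization, and each gene is read from its brightest probe. The median level of the 77 genes was 11.26 with miR-483, 11.28 with miR-551a, 11.15 in the LvM3b control and 11.16 in Ls-Parental. The lowest value of a brightest probe was 7.29, for MRPS14 in Ls-Parental, and the lowest detected level on that array was 6.13. The values used for the members were therefore all above that level, while some of their other probes were not.

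**Figure D1:**
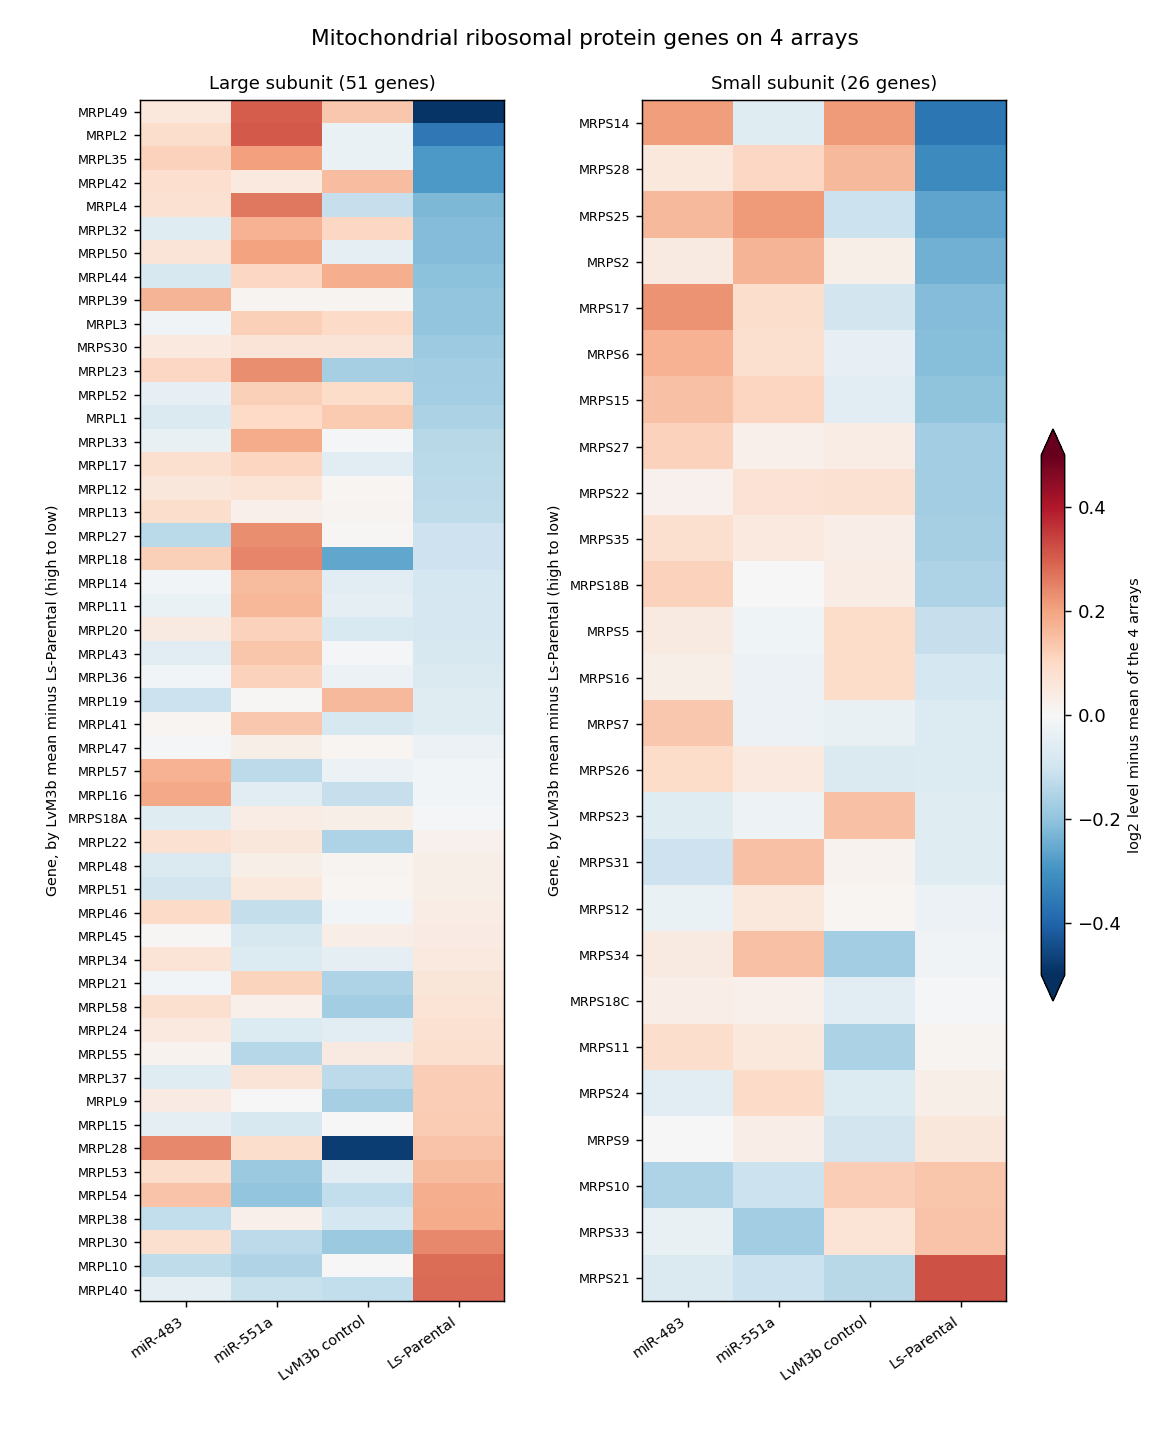
Each row is 1 gene and each column 1 array; colour is the log2 level minus that gene's mean over the 4 arrays, red above and blue below, cut at 0.5 on either side. Rows run from the genes highest in the 3 LvM3b arrays against Ls-Parental (MRPL49, MRPS14) to the lowest (MRPL40, MRPS21), and the dark cell of MRPL28 is the LvM3b control.

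With miR-483, the median log2 difference from the LvM3b control was 0.07, beside 0.01 over the 9673 genes tested. Of the 77 genes 46 were above 0 and 31 below, beside 51.5% and 48.4% of all genes. Single genes were counted from a difference of 25% upward or, the same fold downward, 20%. By that measure 2 members were higher, MRPL28 and MRPL18, and 0 lower. Of all genes tested, 7.2% were at least 25% higher and 7.37% at least 20% lower, and among the 7267 genes detected on all 4 arrays within the members' range of level the shares were 3.99% and 5.09%. The members' share, 2 of 77, was not above that background, and no member was as much as 20% lower with the microRNA on its brightest probe. The other MRPL3 probe, detected on all 4 arrays, was lower with miR-483 by 0.46, or 1.38-fold, where the brightest was at -0.11. The other MRPL10 probe, detected on 1 array, was at -1.25.

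MRPL28, on chromosome 16, encodes a large-subunit protein related to bacterial L28. Its log2 level was 8.36 with miR-483, 8.21 with miR-551a, 7.64 in the LvM3b control and 8.26 in Ls-Parental. The LvM3b control stands apart as the lowest array, and both microRNA cultures sat near Ls-Parental. MRPL28 was 1.64-fold higher with miR-483 and 1.48-fold higher with miR-551a than in the LvM3b control, and 1.53-fold lower in the LvM3b control than in Ls-Parental. All of these differences turn on the LvM3b control array. The deposited signals before normalization were 430.2 with miR-483, 361.3 with miR-551a, 303.5 in the LvM3b control and 365.4 in Ls-Parental, and 1 probe reads the gene.

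MRPL18, on chromosome 6, encodes a large-subunit protein of the central protuberance, the part of the ribosome that faces the small subunit. Its log2 level was 12.80 with miR-483, 12.92 with miR-551a, 12.42 in the LvM3b control and 12.58 in Ls-Parental. It was 1.30-fold higher with miR-483 and 1.42-fold higher with miR-551a than in the control. The other MRPL18 probe gave 12.05, 12.03, 11.85 and 11.75 on the same arrays in the same order. On that probe the microRNA arrays were again above the control, by 0.19 with miR-483 and 0.18 with miR-551a, which is under 25%.

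Next in the order of differences with miR-483 came MRPS17, higher by 0.31, MRPL16 by 0.30 and MRPS25 by 0.27, on the log2 scale. MRPS17 is a small-subunit protein that binds ribosomal RNA early in assembly in bacteria. Furthest lower were MRPS10 at -0.28, MRPL19 at -0.27, MRPL44 at -0.26, MRPS23 at -0.21 and MRPL1 at -0.20. MRPL44 carries a domain related to RNase III. Each of these 8 differences was within those limits.

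With miR-551a, the median difference from the LvM3b control was 0.06, beside 0.01 over the 9619 genes tested, with 52 genes above 0 and 25 below, beside 51.0% and 48.8% of all genes. At least 25% higher were 5 genes, MRPL28 by 0.56, MRPL18 by 0.51, MRPL23 by 0.40, MRPL4 by 0.38 and MRPL2 by 0.34, and none was at least 20% lower. Over all genes tested 9.13% were higher by that much and 8.82% lower, and in the members' level range 6.51% and 6.67%. The 5 genes all encode large-subunit proteins with bacterial relatives. MRPL2 stands near the site where peptide bonds form, MRPL23 lines the mouth of the exit tunnel, and MRPL4 reaches into the tunnel wall. MRPS25 and MRPS34, both small-subunit proteins, lay just short of 25%, each at 0.32.

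MRPL23 had log2 levels of 11.30 with miR-483, 11.43 with miR-551a, 11.03 in the LvM3b control and 11.02 in Ls-Parental. The microRNA arrays were the higher ones, and the LvM3b control and Ls-Parental differed by 0.01. MRPL4 had 9.10 with miR-483, 9.28 with miR-551a, 8.91 in the LvM3b control and 8.80 in Ls-Parental. Its other detected probe gave 8.56, 8.69, 8.44 and 8.02 in that order of arrays, so both probes put miR-551a highest and Ls-Parental lowest. MRPL2 had 10.49 with miR-483, 10.71 with miR-551a, 10.37 in the LvM3b control and 10.04 in Ls-Parental, the same order. Furthest lower with miR-551a were MRPS14 at -0.27, MRPS33 at -0.24, MRPS10 at -0.23, MRPL55 at -0.19 and MRPS23 at -0.17. The other 2 MRPL55 probes went the other way, at 0.14 and 0.32.

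Both microRNA arrays were above the control for 38 of the 77 genes (49.4%) and both below for 17 (22.1%). Over all 10095 genes detected on any array, these shares were 36.8% and 35.4%. The 2 comparisons share the control array, so a low or high control value moves both the same way. MRPL18 and MRPL28 were at least 25% above the control on both arrays, 2 genes of 77, beside 3.7% of all genes and 2.11% in the members' level range. No member was at least 20% below the control on both arrays, beside 4.06% of all genes and 2.63% in the level range.

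Set directly against each other, the microRNA cultures differed for these genes about as much as each did from the control. The median size of the differences, without sign, was 0.12, beside 0.11 with miR-483 and 0.13 with miR-551a over the control. With its sign, the median of miR-483 over miR-551a was -0.03, with 35 genes above 0 and 42 below, beside 49.9% each of all genes. MRPL54 was higher with miR-483 by 0.34 and MRPL27 lower by 0.37 on the log2 scale, and no other member passed the 25% or 20% limit in this comparison. Over the 9753 genes tested 6.18% were higher by at least that much and 5.86% lower, and 3.3% and 2.82% in the members' level range. MRPL27, close to the peptidyl transferase centre in bacterial ribosomes, had 10.27 with miR-483, 10.63 with miR-551a, 10.41 in the LvM3b control and 10.30 in Ls-Parental, so the miR-551a array was its highest. MRPL54 had 10.43 with miR-483, 10.09 with miR-551a, 10.16 in the LvM3b control and 10.47 in Ls-Parental, which puts miR-483 and Ls-Parental together above the other pair. After MRPL54 the members furthest higher with miR-483 were MRPL57 at 0.30 (-0.13 on its other probe), MRPL53 at 0.27, MRPS14 at 0.27 and MRPL16 at 0.25. After MRPL27 those furthest lower were MRPS31 at -0.25, MRPL49 at -0.25, MRPL32 at -0.23 and MRPL33 at -0.22.

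**Figure D2:**
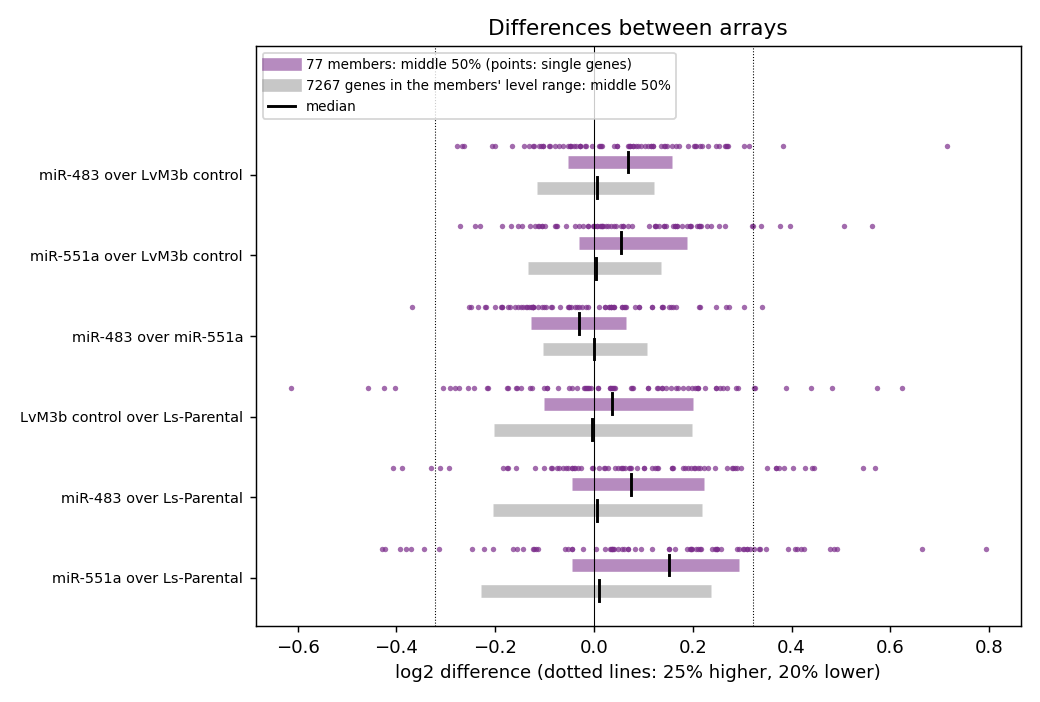
The horizontal axis is the log2 difference for the 6 comparisons of arrays; purple bars span the middle 50% of the 77 genes, grey bars that of 7267 genes in the same level range, black ticks are medians and points are single genes. The purple median lies right of the grey one in 5 comparisons and left of it for miR-483 over miR-551a.

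Against Ls-Parental, the 3 LvM3b arrays gave a wider spread of members. The median log2 difference was 0.07 for the miR-483 array, 0.15 for the miR-551a array and 0.04 for the LvM3b control. These comparisons share the Ls-Parental array. Above 0 were 51 genes with miR-483, beside 49.9% of all genes, 55 with miR-551a, beside 50.1%, and 44 in the LvM3b control, beside 48.1%. Below 0 were 26, 22 and 33 in the same order, beside 50%, 49.8% and 51.8%. At least 25% higher than Ls-Parental were 11 genes with miR-483, 14 on the miR-551a array and 7 in the LvM3b control, and at least 20% lower were 3, 6 and 4 in the same order of arrays. Of all genes tested, 18.5% were higher and 19.5% lower when miR-483 was set against Ls-Parental, 20.2% and 20.8% when miR-551a was, and 16.9% and 18.7% when the control was. In the members' level range these shares were 16.4% and 15.7%, then 18.4% and 17.8%, then 15.3% and 14.8%. As shares of 77 genes, the members' counts were below both sets, and nearest to them for the 14 genes with miR-551a. On the high side this order turned round with the authors' scaling and with median scaling. Scaling on genes detected on all 4 arrays, added after seeing the data, turned it in 2 of the 3 comparisons. The members' shares at least 25% higher were then 20.8% with miR-483, beside 17.3% of all genes, and 24.7% with miR-551a, beside 19.4%. In the control the share was 11.7%, beside 15.5%. Across the 6 comparisons the largest difference was 1.73-fold, for MRPL49 with miR-551a over Ls-Parental.

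All 3 LvM3b arrays were above Ls-Parental for 38 genes (49.4%, beside 35.5% of all genes) and all 3 were below it for 16 (20.8%, beside 35.9%). By at least 25% on all 3, MRPL2, MRPL42, MRPL49 and MRPS28 were above, 4 genes of 77 beside 11.5% of all genes. MRPL40 and MRPS21 were at least 20% below on all 3, beside 11.1% of all genes.

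MRPL49, on chromosome 11, is a large-subunit protein specific to mitochondria. Its log2 level was 10.34 with miR-483, 10.59 with miR-551a, 10.42 in the LvM3b control and 9.80 in Ls-Parental. Ls-Parental was the lowest of the 4, and the other arrays lay within 0.25 of each other. The differences from Ls-Parental were 0.54, 0.79 and 0.62, or 1.46-fold, 1.73-fold and 1.54-fold, in that order of arrays. The deposited signals were 1467.5 with miR-483, 1563.4 with miR-551a, 1570.6 in the LvM3b control and 871.9 in Ls-Parental, the same separation before any normalization.

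MRPS14, a small-subunit protein near the decoding site whose loss of function causes mitochondrial disease, had 7.86 with miR-483, 7.60 with miR-551a, 7.87 in the LvM3b control and 7.29 in Ls-Parental. It was the dimmest of the brightest probes, and its miR-551a array lay between the other LvM3b arrays and Ls-Parental. MRPS28 had 10.99, 11.04 and 11.10 on the miR-483, miR-551a and LvM3b control arrays, against 10.61 in Ls-Parental. MRPL42 had 11.29, 11.26 and 11.36 in the same 3 arrays, against 10.93 in Ls-Parental. On these probes Ls-Parental was the lowest array for MRPS28 and MRPL42, as for MRPL49, and no microRNA array was 25% above the control. The other MRPL42 probe did not separate the lines: it gave 10.06, 10.15 and 10.12 in LvM3b, against 10.09 in Ls-Parental. MRPL44 in the LvM3b control was 0.39 above Ls-Parental, and MRPL32 and MRPL2 were 0.32 and 0.33 above it.

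With miR-483 the members furthest above Ls-Parental were MRPS14 at 0.57, MRPL49 at 0.54, MRPL2 at 0.45, MRPS17 at 0.44 and MRPS25 at 0.43. With miR-551a they were MRPL49 at 0.79, MRPL2 at 0.66, MRPL35 and MRPL4 at 0.49 each, and MRPS25 at 0.48. MRPS25 is a small-subunit protein with no bacterial relative. MRPL2, MRPL49 and MRPS25 are in both sets of 5.

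On the low side, MRPS21 encodes a small-subunit protein related to bacterial S21, which acts near the start of translation. It had 12.73 with miR-483, 12.69 on the miR-551a array and 12.66 in the LvM3b control, against 13.12 in Ls-Parental. Its brightest probe thus put Ls-Parental highest. The other MRPS21 probe gave 10.53, 10.28 and 10.41 in LvM3b, against 10.43 in Ls-Parental, and did not separate the lines. MRPL40, which lies in the region of chromosome 22 deleted in DiGeorge syndrome, had 10.77, 10.71 and 10.70 in the LvM3b arrays in that order, against 11.10 in Ls-Parental. Its deposited signals were 1941.6, 1695.4 and 1887.5 against 1996.2, so the LvM3b arrays were only slightly the lower before normalization.

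MRPL10, which anchors the flexible stalk that recruits translation factors, had 9.25, 9.23 and 9.37 in the LvM3b arrays in that order and 9.66 in Ls-Parental. It was the furthest below Ls-Parental in both microRNA cultures, at -0.41 with miR-483 and -0.43 with miR-551a. MRPL38 at -0.31 and MRPS10 at -0.29 followed MRPL10, MRPS21 and MRPL40 with miR-483. MRPL54 at -0.38 and MRPL30 at -0.37 followed them with miR-551a. In the LvM3b control the furthest below Ls-Parental were MRPL28 at -0.61, MRPS21 at -0.46, MRPL30 at -0.43, MRPL40 at -0.40 and MRPL54 at -0.31.

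**Figure D3:**
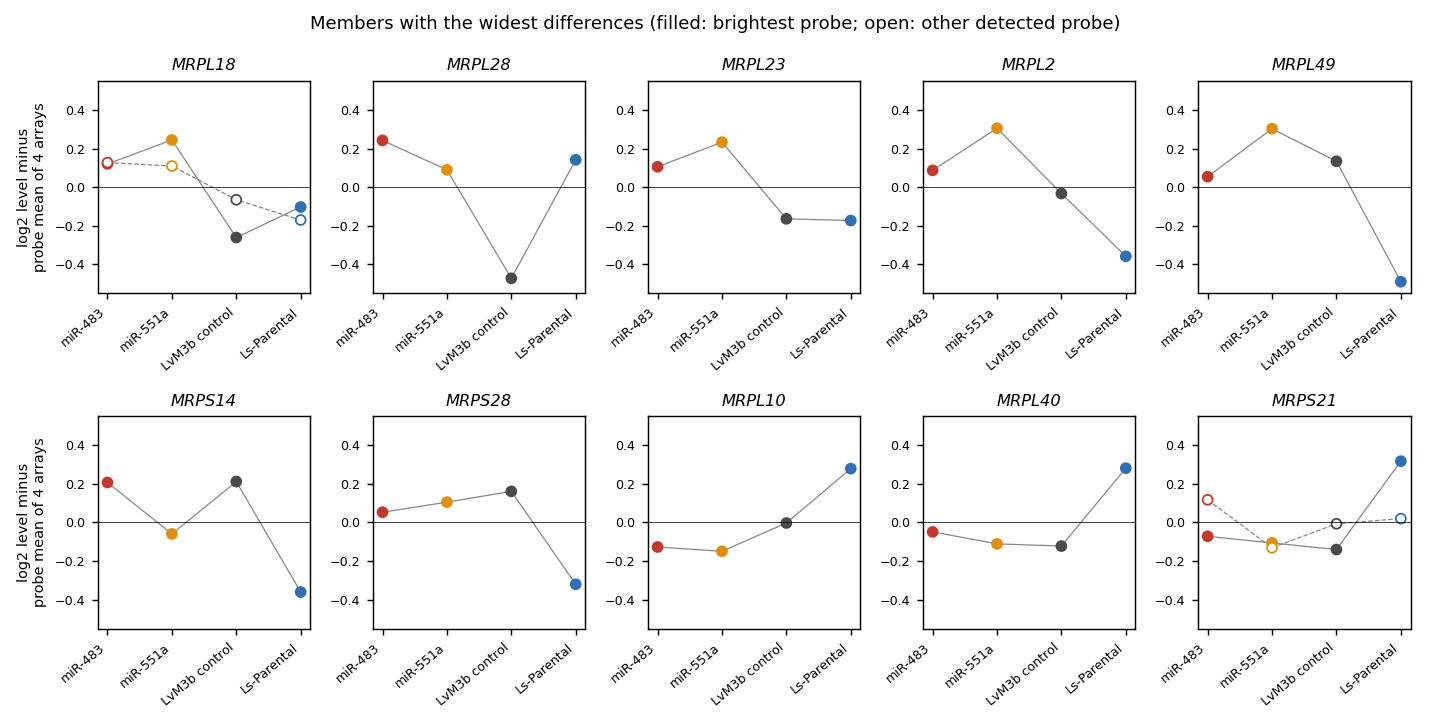
Each panel is 1 gene; the vertical axis is the log2 level minus that probe's mean over the 4 arrays, and the points from left to right are miR-483, miR-551a, LvM3b control and Ls-Parental. Filled points are the brightest probe and open points another detected probe: for MRPL28 the control is the low point, for MRPL49, MRPL2 and MRPS28 Ls-Parental is low, and for MRPS21 the open points do not repeat the high Ls-Parental value.

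The 77 genes were also split by subunit. With miR-483 over the control the median was 0.07 for the large subunit and 0.06 for the small one, and with miR-551a 0.06 and 0.04. In the LvM3b control over Ls-Parental it was 0.01 for the large and 0.14 for the small subunit, and with miR-551a over Ls-Parental 0.15 and 0.13. With miR-551a over Ls-Parental 22 of 26 small-subunit genes were above 0, and 33 of 51 large-subunit genes, beside 50.1% of all genes. For miR-483 over Ls-Parental the medians were 0.06 for the large and 0.16 for the small subunit. Above 0 there were 18 of 26 small-subunit and 33 of 51 large-subunit genes, beside 49.9% of all genes. For the control over Ls-Parental these counts were 17 of 26 and 27 of 51, beside 48.1%. Proteins with bacterial relatives had a median of 0.07 with miR-483 and 0.08 with miR-551a over the control, against 0.02 and 0.01 for the mitochondria-specific ones. All members past 25% in those 2 comparisons, 2 with miR-483 and 5 with miR-551a, were of the bacterial kind, as are 47 of the 77. This split rests on the limit chosen: the mitochondria-specific MRPS25 and MRPS34 lay just short of 25% with miR-551a.

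A list of 13 members in which inherited variants cause mitochondrial disease was taken from general knowledge and may leave out others. These 13 had medians above Ls-Parental of 0.18 with miR-483, 0.25 on the miR-551a array and 0.21 in the LvM3b control. Above 0 were 11, 12 and 11 of the 13 in that order, beside 51, 55 and 44 of all 77 members and 49.9%, 50.1% and 48.1% of all genes. Over the LvM3b control their medians were 0.00 with miR-483 and 0.00 with miR-551a. MRPS28, MRPS14, MRPL44, MRPS2 and MRPS25 were each at least 25% above Ls-Parental on at least 1 LvM3b array. MRPL3 had 13.88, 14.01 and 13.99 in the LvM3b arrays in the same order, against 13.70 in Ls-Parental, and MRPS22 had 12.06, 12.11 and 12.11, against 11.86. MRPL12, the stalk protein that also binds the mitochondrial RNA polymerase, had 11.51, 11.52 and 11.47, against 11.33. On these probes Ls-Parental was the lowest array for all 3 genes, and on the other MRPL3 probe miR-483 was, at 8.31, with Ls-Parental at 8.34.

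Between the lines the members' differences were less spread than those of all genes of like level, and about as spread as those of related lists. The SD of their log2 differences between the LvM3b control and Ls-Parental was 0.23 over 77 genes, beside 0.44 over the 7267 genes in the same level range, 0.23 for oxidative phosphorylation subunits and 0.24 for cytosolic ribosomal proteins. Over the LvM3b control the SD was 0.17 for the members, beside 0.19 for genes of like level, with miR-483, and 0.17 beside 0.22 with miR-551a. The median range over the 3 LvM3b arrays was 0.19 for the members and 0.20 for the genes of like level. The members with the widest range over the 3 LvM3b arrays were MRPL28 (0.72), MRPL18 (0.51), MRPL23 (0.40), MRPL4 (0.38) and MRPL27 (0.37). On their brightest probes MRPL47, MRPS12 and MRPS18C were among the steadiest over all 4 arrays: MRPL47 had 10.14, 10.17, 10.16 and 10.12 with miR-483, with miR-551a, in the control and in Ls-Parental. MRPS12, the protein of the decoding centre whose bacterial relative is the site of streptomycin resistance, had 11.74, 11.83, 11.78 and 11.75. Their other detected probes varied more: that of MRPL47 gave 9.96, 9.92, 10.07 and 9.66, and the dimmest detected one of MRPS12 ran between 8.37 with miR-551a and 7.62 in Ls-Parental.

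Where a gene has several probes, they gave a guide to what a single probe can carry. For 21 members at least 2 probes were detected on all 4 arrays. All probes of a gene lay on the same side of 0 for 16 of the 21 with miR-483 over the control and for 10 with miR-551a over the control. Against Ls-Parental they did so for 10 with miR-483, 16 on the miR-551a array and 14 in the LvM3b control. The median gap between probes of a gene was 0.10 with miR-483 and 0.20 with miR-551a over the control, and 0.25, 0.20 and 0.26 over Ls-Parental for miR-483, miR-551a and the control. The median size of the 77 differences, from brightest probes and without sign, was 0.11 and 0.13 over the control and 0.16, 0.21 and 0.16 over Ls-Parental in the same order. Agreement was lowest with miR-483 over miR-551a: all probes lay on the same side of 0 for 8 of the 21. There the median gap was 0.15 and the median size 0.12. No gene had probes past those limits in opposite directions.

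The differences from Ls-Parental depended on how the arrays were scaled. With the values as scaled by the authors, the median difference of the members was 0.26 with miR-483, 0.25 on the miR-551a array and 0.20 in the control, but the median over all detected genes was then 0.11, 0.10 and 0.10. Relative to all genes the members stood at 0.14, 0.15 and 0.10 there, and at 0.07, 0.15 and 0.05 with quantile normalization. Counts past the 25% and 20% limits changed more: with the authors' scaling the higher and lower counts were 29 and 0 for the miR-483 array, 36 and 0 for the miR-551a array, and 24 and 1 for the control. Of all genes tested, 23.7% were then higher and 9.39% lower for miR-483, 23.8% and 11.2% for miR-551a, with 21.5% and 8.17% for the control. The members' shares of higher genes, 37.7%, 46.8% and 31.2% in that order, were above those of all genes, while with quantile normalization they were below. MRPS21 and MRPL40 were below Ls-Parental on all 3 LvM3b arrays under that scaling too, MRPS21 at -0.19, -0.24 and -0.28 and MRPL40 at -0.13, -0.20 and -0.20 for miR-483, miR-551a and the control. MRPL18 in the LvM3b control was below Ls-Parental by 0.16 with quantile normalization and above it by 0.03 under the authors' scaling. Relative to all genes, the members' median stayed above 0 in all 5 comparisons with the control or Ls-Parental under every setting tried.

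Related gene lists put these medians in context. Oxidative phosphorylation subunits, the nuclear-encoded proteins of the respiratory chain and ATP synthase, had 66 members tested over the control, with medians of 0.01 with miR-483 and 0.01 with miR-551a. Over Ls-Parental their medians were 0.07 (miR-483), 0.08 (miR-551a) and 0.07 (control), with 34 of 66 (51.5%) above Ls-Parental on all 3 LvM3b arrays and 14 (21.2%) below. Cytosolic ribosomal proteins had medians of -0.04 with miR-483 and -0.05 with miR-551a over the control, and -0.02, -0.05 and -0.03 over Ls-Parental for miR-483, miR-551a and the control. Some of these signs turn with the scaling: over Ls-Parental the medians were 0.03, 0.02 and 0.05 with the authors' scaling, and with median scaling miR-483 over the control was at 0.01. Of these 73 genes 18 (24.7%) were above Ls-Parental on all 3 LvM3b arrays and 32 (43.8%) below. Relative to all genes the cytosolic list stood below 0 in these 5 comparisons under the settings tried, except in the control over Ls-Parental with the mean of all probes, where it was at 0.00.

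**Figure D4:**
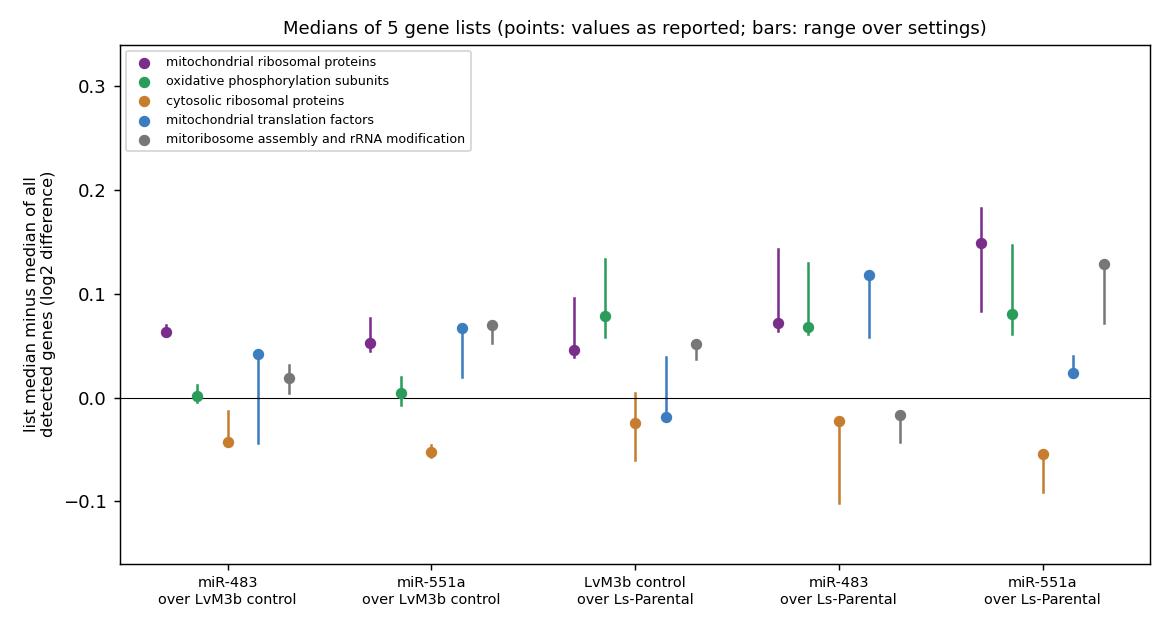
The vertical axis is the median log2 difference of a gene list minus the median over all detected genes, for 5 comparisons; points are values with quantile normalization and vertical bars the range over the other settings. The mitochondrial ribosomal proteins (purple) lie above 0 in all 5, the cytosolic ribosomal proteins (orange) mostly below it, and the oxidative phosphorylation subunits (green) near 0 over the control and above 0 over Ls-Parental, while the translation factors (blue) and the assembly and RNA modification genes (grey) lie on both sides of 0.

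The remaining machinery of mitochondrial translation was read from lists of known factors. Of 18 translation factors, 12 were above the control on each microRNA array, beside 51.5% of all genes with miR-483 and 51.0% with miR-551a. On each array 1 factor, TSFM, was at least 25% higher, beside 7.2% and 9.13% of all genes. TSFM, the exchange factor of the elongation factor TUFM, had 9.30 with miR-483, 9.15 with miR-551a, 8.64 in the LvM3b control and 8.92 in Ls-Parental, so the control was its lowest array, as for MRPL28. TUFM itself had 12.53, 12.47, 12.42 and 12.54 in that order. Of 23 detected genes for assembly of the mitochondrial ribosome and modification of its RNA, 2 were at least 25% higher with miR-483, beside that 7.2%. With miR-551a 5 were higher and 1 lower, beside 9.13% and 8.82% of all genes. DDX28, an RNA helicase of large-subunit assembly, had 8.52 with miR-483, 8.64 with miR-551a, 8.15 in the LvM3b control and 8.69 in Ls-Parental, again with the control lowest.

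Among the assembly genes MRM1, which methylates the large-subunit RNA, had 6.84 with miR-483, 6.46 with miR-551a, 6.15 in the LvM3b control and 5.75 in Ls-Parental. It was detected on only 2 of the 4 arrays. FASTKD2, an RNA-binding protein needed for the large-subunit RNA, had 8.84 with miR-483, 9.14 on the miR-551a array and 8.79 in the LvM3b control, against 8.21 in Ls-Parental. RPUSD3, a pseudouridine synthase, had 10.07, 10.07 and 10.01 in the same LvM3b arrays, against 10.66 in Ls-Parental. The LvM3b arrays did not overlap Ls-Parental for either gene. The same was common: all 3 lay above Ls-Parental for 35.5% of all genes and below it for 35.9%. GADD45GIP1, a large-subunit protein outside the MRPL naming, went the other way from MRPL28: it had 6.40 with miR-483, 6.55 with miR-551a, 7.14 in the LvM3b control and 6.97 in Ls-Parental. Those levels lie close to the lowest detected level on each array, from 6.13 to 6.38.

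The promoters of the genes were examined for what the naming rule did not use. RefSeq promoters of GRCh38.p14, from 250 bases before to 50 after the start, matched 69 of the 77 members by gene number. MRPL2, MRPL10, MRPL13, MRPL15, MRPL21, MRPL23, MRPL35 and MRPS28 were without a match. Motifs were searched as letters on both strands: CCGGAAG (ETS factors, among them GABPA), AAGATGG (YY1), CACGTG (E-box, bound by MYC) and GGGCGG (SP1). Longer motifs were the YY1 consensus, which is AAGATGG with 4 further bases and is seen in capitals in the MRPS10 sequence below, the NRF1 consensus, and TGACGTCA (CREB). Every match of the long YY1 motif is also a match of AAGATGG. GABPA, NRF1 and YY1 are known regulators of nuclear genes for mitochondrial proteins. A match describes letters, not binding.

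CCGGAAG was present in 29 of 69 member promoters (42.03%), beside 14.2% of 15843 promoters of protein-coding genes. AAGATGG was present in 23 (33.3%, beside 6.40%) and the long YY1 motif in 10 (14.5%, beside 1.37%). At least 1 of CCGGAAG and AAGATGG was found in 43 promoters (62.3%, beside 19.4%), and both in 9 (13.04%, beside 1.27%): MRPL20, MRPL38, MRPL47, MRPL51, MRPL52, MRPS10, MRPS12, MRPS16 and MRPS18A. The NRF1 motif was in 8 (11.6%, beside 8.58%), CACGTG in 6 (8.70%, beside 8.88%), GGGCGG in 42 (60.9%, beside 58.5%) and TGACGTCA in 0 (beside 2.59%). The median GC content was 60.3% for the members and 62.7% for all. In oxidative phosphorylation promoters (58 matched) the shares were 31.0% for CCGGAAG, 24.1% for AAGATGG and 24.1% for the NRF1 motif. In cytosolic ribosomal protein promoters (63 matched) they were 34.9%, 12.7% and 11.1%, and the long YY1 motif was in none of them.

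The position of the matches was read too. Of 39 CCGGAAG matches 33 (84.6%) began within the last 150 bases of the window, with a median of 22 bases before the start, beside 72.7% of the matches in all promoters. Of 24 AAGATGG matches 21 (87.5%) did, with a median 9 bases after it, beside 63.3% in all promoters. All 10 matches of the long YY1 motif were there, near the 87.6% in all promoters. The sequences below run from 100 bases before to 50 after the start, 5′ to 3′ on the strand of the gene, with matches of CCGGAAG and of the YY1 motifs or their reverse complements in capitals. The first 3 are the members that hold both CCGGAAG and the long YY1 motif, and MRPL28 and MRPL49 are shown because their levels differed most between arrays. MRPL38 lies at chr17:75904835-75904984, MRPS10 at chr6:42217812-42217961, MRPS18A at chr6:43687742-43687891 and MRPL28 at chr16:370489-370638, all on the minus strand, and MRPL49 at chr11:65122083-65122232 on the plus strand.
MRPL38: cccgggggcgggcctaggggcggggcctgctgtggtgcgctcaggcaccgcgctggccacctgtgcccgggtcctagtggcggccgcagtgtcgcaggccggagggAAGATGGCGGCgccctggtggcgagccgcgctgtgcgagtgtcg
MRPS10: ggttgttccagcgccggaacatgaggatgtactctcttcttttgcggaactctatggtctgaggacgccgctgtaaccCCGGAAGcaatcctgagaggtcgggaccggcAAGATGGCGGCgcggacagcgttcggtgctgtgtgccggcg
MRPS18A: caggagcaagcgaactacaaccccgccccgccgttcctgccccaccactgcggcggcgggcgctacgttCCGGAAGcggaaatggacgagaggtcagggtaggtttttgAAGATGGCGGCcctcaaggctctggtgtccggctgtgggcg
MRPL28: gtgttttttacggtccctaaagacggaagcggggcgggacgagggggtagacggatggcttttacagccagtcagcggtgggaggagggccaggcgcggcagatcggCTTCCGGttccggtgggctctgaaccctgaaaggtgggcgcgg
MRPL49: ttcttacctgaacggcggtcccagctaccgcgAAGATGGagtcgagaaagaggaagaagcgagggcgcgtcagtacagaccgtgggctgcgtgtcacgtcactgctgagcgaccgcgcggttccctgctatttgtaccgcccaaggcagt

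The long YY1 motif began 7 bases after the start in MRPL38 and 10 bases after it in MRPS10 and MRPS18A. CCGGAAG began 22 bases before the start in MRPS10 and 31 before it in MRPS18A, while in MRPL38 it lay 208 bases before, outside the stretch printed. MRPL28 holds the reverse complement, CTTCCGG, 8 bases after its start, and MRPL49 holds AAGATGG 68 bases before. MRPL18 holds none of these, only GGGCGG.

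Levels on the arrays were set beside the motifs. The 29 members with CCGGAAG had medians of -0.04 with miR-483 and 0.04 with miR-551a over the control, and the 40 without it 0.08 and 0.10. Over Ls-Parental the medians with CCGGAAG were 0.00 with miR-483, 0.04 on the miR-551a array and -0.01 in the control, and without it 0.17, 0.21 and 0.12. The 23 members with AAGATGG had medians of -0.02 with miR-483 and 0.03 with miR-551a over the control, and the 46 without it 0.09 and 0.07. Over Ls-Parental they had 0.06, 0.08 and 0.04 for miR-483, miR-551a and the control, and without it 0.07, 0.14 and 0.01, so the order of the sets turned in the control. GABPA had 9.20 with miR-483, 9.14 with miR-551a, 9.02 in the LvM3b control and 8.95 in Ls-Parental, and its partner GABPB1 had 9.34, 9.40, 9.47 and 8.97. YY1 had 12.21, 12.03, 12.30 and 12.27 in that order. NRF1 was detected on no array.

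**Figure D5:**
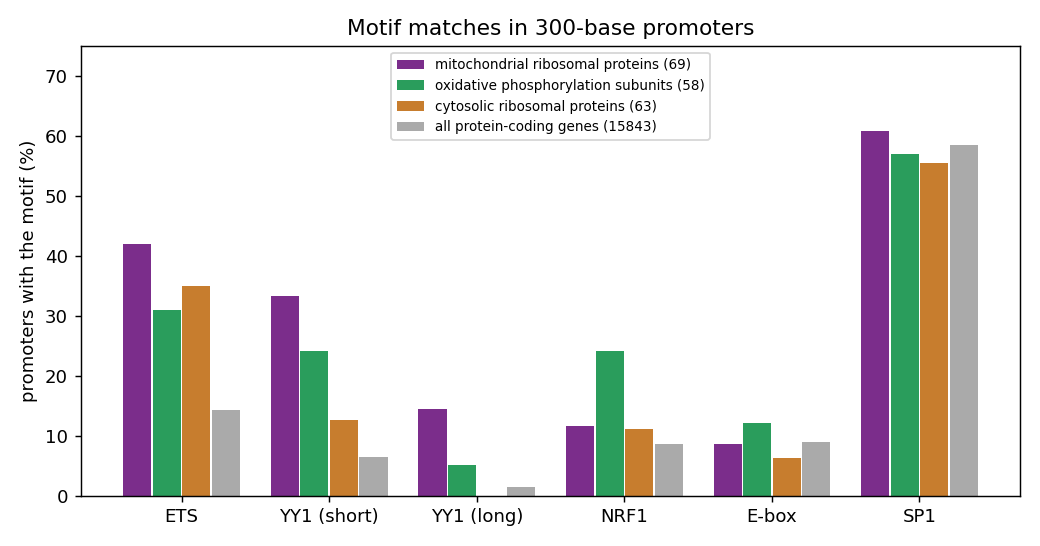
Bars give the percent of promoters with at least 1 match of each motif, for mitochondrial ribosomal proteins (69 promoters), oxidative phosphorylation subunits (58), cytosolic ribosomal proteins (63) and all protein-coding genes (15843). The ETS and both YY1 bars are highest for the mitochondrial ribosomal proteins, the NRF1 bar for the oxidative phosphorylation subunits, and the SP1 bars are alike.

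Many of these genes start beside another gene that is read in the opposite direction. A protein-coding head-to-head partner with its start within 1000 bases was found for 18 of 69 members (26.1%), beside 10.3% of the 15843 genes with a promoter, 29.3% of oxidative phosphorylation genes and 17.5% of cytosolic ribosomal protein genes. The median distance between the starts was 206 bases. MRPL46 and MRPS11, 1 gene of each subunit, share such a region with 320 bases between their starts. MRPL32 faces PSMA2 of the proteasome, MRPS12 faces the mitochondrial seryl-tRNA synthetase SARS2, and MRPL50 faces ZNF189.

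Partners were set beside their members. Of 17 members with a partner detected on the arrays, partner and member lay on the same side of 0 for 13 with miR-483 and 8 with miR-551a over the control, and for 9, 5 and 9 over Ls-Parental for miR-483, miR-551a and the control. MRPL46 and MRPS11 are partners of each other, so that pair is counted from both sides in these counts. MRPL18 faces TCP1, a subunit of the cytosolic chaperonin, with 210 bases between the starts. TCP1 was higher by 0.07 with miR-483 and 0.08 with miR-551a over the control, where MRPL18 was higher by 0.38 and 0.51. MRPL49 faces FAU, which encodes a ubiquitin-like protein fused to a cytosolic ribosomal protein, with 49 bases between the starts. FAU was lower than Ls-Parental by 0.18 with miR-483, 0.11 on the miR-551a array and 0.39 in the control, where MRPL49 was higher by 0.54, 0.79 and 0.62.

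Neighbouring genes were read as well. Each member was set beside the median of the 10 nearest detected genes on each side in RefSeq order. In the LvM3b control over Ls-Parental, Pearson's r between the member and that median was 0.06 over 77 genes, as a description, and 42 of the 77 lay on the same side of 0. MRPL23 lies beside the imprinted region of H19 and IGF2 on chromosome 11. The H19 RNA had 13.80 with miR-483, 13.82 on the miR-551a array and 13.76 in the LvM3b control, against 9.74 in Ls-Parental, differences of 4.05, 4.08 and 4.01 on the log2 scale. IGF2 was detected on no array. MRPL23 differed from Ls-Parental by 0.28 with miR-483, 0.41 on the miR-551a array and 0.01 in the control.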

How the data were processed

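Total RNA from 4 cultures, 1 array each, was extracted with a miRVANA kit, made into biotinylated cRNA and hybridised to Illumina bead arrays, per the labels' protocols. Per the file headers, the deposited non-normalized table pairs each array's signal with its Detection value. Signals are linear probe intensity values that the authors deposited before any normalization between arrays, with medians of 112.5 with miR-483, 103.6 with miR-551a, 115.4 in the LvM3b control and 106.0 in Ls-Parental. The deposited Detection score runs from 0 to 1 and is high for bright probes, and the detection p was taken as 1 minus this score. The authors' other table of scaled intensity equals the first times 1 factor per array, as found from the values. Which software made the tables is not stated in the labels or headers.

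Normexp correction of the signals (offset 16) in limma 3.58.1 and R 4.3.3 was followed by quantile normalization and log2 (neqc). Probe names came from the platform annotation: of 48803 probes 27578 had 1 gene, 13 several and 21212 none. Each gene was read from its brightest probe, and a comparison took genes detected (p under 0.01) on at least 1 of its arrays. With 1 array per group no test was made; counts of genes at least 25% higher or 20% lower stand beside the same over all genes. The steps were tested on simulated arrays. Precision is limited by the number of arrays, and the files give no error within an array.

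The members and all lists were chosen with earlier results of these data known. Genes named with values are the 5 furthest higher and lower in each comparison, those past these limits on all 3 LvM3b arrays, and listed pathway genes; MRPL18, MRPL23, MRPL47, MRPS12, FAU, TCP1 and H19 were also picked after their values were seen. RefSeq tables of GRCh38.p14 gave gene order and promoters; the files name no build.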

Additional observations from a re-analysis of the deposited data

How the results depend on the processing

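With 1 array per group, the fold and the scaling decide the counts. No paired analysis was possible because each group has 1 array. Of 200 medians and counts recomputed under other settings 170 moved little and 30 moved. Of 480 values of named genes 422 moved little and 58 moved. Changing the detection limit, dropping the filter, asking for detection on both arrays and updating symbols could not move any value of a member. All 77 members were detected on all 4 arrays, and the symbol update renamed none. Part of the values that moved little was therefore fixed in advance. Median scaling gave 6 members at least 25% higher with miR-483 over the control, beside 10.2% of all genes. With miR-483 over miR-551a it gave 5 higher and 0 lower, beside 11.3% and 3.52% of all genes, and the members' median became 0.06. Over Ls-Parental it gave medians of 0.30 with miR-483 and 0.19 in the control. Its counts higher and lower were 33 and 0 for the miR-483 array, 33 and 1 for miR-551a, 23 and 2 for the control, beside 31.5%, 25.1% and 24.7% of all genes higher and 13%, 17.5% and 13.7% lower. It put 5 members below Ls-Parental on all 3 arrays, beside 24.2% of all genes. The authors' scaling gave 3 higher with miR-551a over the control, beside 4.5% of all genes. Over Ls-Parental it gave medians of 0.26 with miR-483 and 0.20 in the control. Its counts were 29 and 0 for the miR-483 array, 36 and 0 for miR-551a, 24 and 1 for the control, beside 23.7%, 23.8% and 21.5% of all genes higher and 9.39%, 11.2% and 8.17% lower. It put 59 members above and 4 below Ls-Parental on all 3 arrays, beside 50.8% and 23.3% of all genes. Scaling on genes detected on all 4 arrays, added after seeing the data, gave 10 below, beside 37.4%. The mean of all probes gave 1 member higher and 1 lower with miR-483 over the control, 1 lower with miR-551a over the control, 3 lower with miR-483 over miR-551a, and 1 lower with miR-483 over Ls-Parental. The shares of all genes were 6.32%, 6.36%, 7.51%, 5.03% and 17.1% in that order. With the mean of all probes 9.09% of members were at least 25% higher with miR-551a over the control, beside 8.16% of all genes. The member lower over the control was MRPL10, at -0.69 with miR-483 and -0.45 with miR-551a, whose other probe was detected on 1 array. Without background correction no member was higher with miR-483 over miR-551a. The cause was not tested for any of these. MRPL28, at 0.72 with miR-483 over the control, was at 0.54 without background correction and 0.54 with the authors' scaling. Low signals limit MRPL28 and MRPS14 most.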

Other observations

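Genes that copy and transcribe the mitochondrial genome were also read. Of 12 detected, 8 were above Ls-Parental on the miR-483 array, 10 on the miR-551a array and 11 on the LvM3b control array. Of all genes 49.9%, 50.1% and 48.1% were above it in that order. The medians of the 12 were 0.08 with miR-483, 0.18 on the miR-551a array and 0.13 in the control. None of the 12 was at least 20% lower in any of the 3, beside 19.5%, 20.8% and 18.7% of all genes. At least 25% higher were 3 with miR-483, 3 on the miR-551a array and 2 in the control. The shares of all genes that much higher were 18.5%, 20.2% and 16.9%. POLG2, the accessory subunit of the mitochondrial DNA polymerase, had 7.76 with miR-483, 7.58 on the miR-551a array and 7.54 in the LvM3b control, against 7.15 in Ls-Parental. TWNK, the replicative helicase, had 9.26, 9.51 and 9.08 in the same LvM3b arrays, against 8.91 in Ls-Parental. ELAC2, which trims mitochondrial transfer RNAs, had 9.73 and 9.68 with miR-483 and miR-551a, against 9.37 in the LvM3b control and 9.22 in Ls-Parental. TFAM, the packaging and transcription factor of mitochondrial DNA, had 11.04, 11.23 and 11.19 in the LvM3b arrays, against 11.05 in Ls-Parental.

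Regulators of mitochondrial biogenesis gave mixed values. PPARGC1A, a coactivator of respiratory genes, had 8.90 with miR-483, 8.71 with miR-551a, 9.12 in the LvM3b control and 8.55 in Ls-Parental. PPRC1, a related coactivator, had 10.22, 10.43, 9.99 and 10.24 in the same order, with the LvM3b control lowest. MYC had 12.96, 12.84, 12.84 and 12.88, with the miR-483 array highest.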
